A study of Mus musculus with 12 samples.

Results

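The scavenger and efferocytosis receptors described here are 9 genes with Siglec1 at their head: Siglec1, Msr1, Cd36, Mrc1, Stab1, Scarb1, Scarb2, Mertk and Axl. They were found by symbol among the 24421 genes listed in each file, all 9 were found, and no measured value entered the rule. Their RNA was followed by RNA-seq in bone marrow-derived macrophages (BMMs), the precursors of osteoclasts, in 12 libraries of 6 conditions with 2 replicates each. All values are in CPM, read counts scaled to the same total on genes in each library, unless RPKM, which also divides by the length of the gene, is named.

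Macrophages clear modified lipoproteins, glycoproteins and dying cells through surface receptors. Scavenger receptors bind polyanionic ligands such as oxidised lipoproteins, the mannose receptor takes up glycoproteins and collagen fragments, and the TAM kinases Mertk and Axl bind phosphatidylserine on apoptotic cells through the bridging proteins Gas6 and Pros1, a process called efferocytosis. Siglec1 (CD169, sialoadhesin) is a sialic acid-binding lectin of tissue macrophages that is known to respond to type I interferon. RANKL is the cytokine that turns BMMs into osteoclasts, the cells that resorb bone, and interferon is known to restrain that step.

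The loss of function experiment compared WT cells (Mir182+/+ with LysMcre) with Mir182ΔM/ΔM cells (Mir182flox/flox with LysMcre), each without RANKL (Basal) and after RANKL for 5 days. The gain of function experiment compared Control cells (LysMcre) with Mir182mTg cells, which carry LysMcre and a miR-182 transgene in the Rosa26 locus behind a stop cassette flanked by loxP sites, both Basal. All 6 conditions therefore carried the Cre recombinase under the lysozyme M promoter, which is active in myeloid cells and can recombine less than all of them. The study names the C57BL/6 background for the LysMcre mice used in both crosses, and the strain of the single libraries was not tested. All cells had first been grown with M-CSF, the macrophage growth factor, for 3 days. The ages of the mice were not given in the sources used here. The study describes the replicates as biological and independent. Whether they came from separate animals or from separate cultures is not given in the sources used here. Whether they were repeat libraries of the same RNA was not tested. With the replicate number taken into account in the fit, the biological coefficient of variation was 1.60%, against 10.4% without it. The p-values measure the spread between these libraries, and whether it equals the spread between animals was not tested.

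The libraries held 24951280 to 33050619 reads on genes, and the 9 receptors were read from 355 to 213817 times, so that counting error was small for all of them. The 10 macrophage markers were all over 1 CPM in all 12 libraries, with summed levels of 9950 to 17558 CPM. These sums include Lyz2, which alone ranged from 22.5 to 7062 CPM, so they do not measure macrophage content by themselves. Markers of other cells were low: in the 12 libraries the summed level reached at most 16.6 CPM for T cell, 3.71 CPM for B cell, 23.4 CPM for dendritic cell, 36.8 CPM for stromal and osteoblast and 1.64 CPM for erythroid and megakaryocyte markers, and at most 1 T cell, 1 B cell and 2 dendritic cell markers were over 1 CPM in any condition. In the loss of function libraries, neutrophil and progenitor markers summed to 93.5 to 118 CPM in the Basal libraries and to 7.19 to 22.6 CPM after RANKL. Endothelial markers summed to 110 to 112 CPM in Mir182ΔM/ΔM RANKL against 9.51 to 28.5 CPM in the other 6. Most of that sum in Mir182ΔM/ΔM RANKL was Kdr, at 101 CPM on average. Stab2, Cdh5, Emcn and Tek were there at 4.01, 3.78, 1.64 and 0.0854 CPM on average. The part of cells other than macrophages in the results was not tested, and in bulk RNA fewer cells of a type and less RNA per cell cannot be told apart.

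In Lyz2, Ifi202b and Ifi44, which do not belong to the receptors, the WT RANKL libraries were unlike the rest of their experiment. How many other genes share this pattern was not counted. Lyz2, the gene that carries the LysM Cre insertion, was at 4117 and 4288 CPM in WT RANKL, at 22.5 to 44.0 CPM in the other 6 loss of function libraries and at 5783 to 7062 CPM in the 4 gain of function libraries. Ifi202b was at 1.12 and 0.972 CPM in WT RANKL, at 82.1 to 152 CPM in the other 6 and at 0.0908 CPM or less in the gain of function libraries. Ifi44 is also among the interferon-stimulated genes described below. It was at 2.83 and 2.56 CPM in WT RANKL, at 11.4 to 226 CPM in the other 6 and at 0.756 to 1.31 CPM in the gain of function libraries. The WT RANKL libraries do not enter the log2 fold changes between the genotypes without RANKL or between Mir182ΔM/ΔM cells with and without RANKL. They do enter the standard errors and p-values of these comparisons, because all loss of function libraries were fitted together. The log2 fold changes of the other loss of function comparisons use the WT RANKL libraries. In those, the part that follows from what sets these libraries apart cannot be told apart from RANKL and genotype. For the response of WT cells, the values against Control Basal, whose Lyz2 level was nearer, are given beside the main ones.

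The targeted gene could not be checked in the loss of function libraries. Mir182 had 0 reads in both WT conditions and in Control, at most 0.0370 CPM in the Mir182ΔM/ΔM libraries, and 2.39 and 4.40 CPM in the Mir182mTg libraries. These are reads on the Mir182 gene and do not measure the mature miRNA. A microRNA of this kind pairs through all or most of its seed, bases 2 to 8, with sites in the 3′ UTR of an mRNA. The mature sequence of miR-182-5p is shown from RefSeq (GRCm38.p6, chr6:30165962-30165986, minus strand) with the seed in capitals, followed by a site of a gene outside the receptors as an example of a match, with the matching bases in capitals.
miR-182-5p: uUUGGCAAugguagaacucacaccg
Eif2ak2 3′ UTR site: gaggcttcTGCCAAAtcttccct
The site lies at chr17:78852625-78852631 (GRCm38, minus strand) in Eif2ak2, the gene of the RNA-activated kinase PKR. Its capitals match bases 2 to 7 of the miRNA, with an A opposite base 1, and not base 8.

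None of the 9 receptors had such a match. The motif TTGCCAA pairs with the whole seed, the motif TGCCAAA with bases 2 to 7 and an A opposite base 1, and TTGCCAAA holds both. They were searched on the sense strand of every annotated 3′ UTR (GENCODE vM21), and 0 of 9 receptor genes held any of them. Among the genes tested in the loss of function experiment, 2720 of the 10902 with an annotated 3′ UTR held at least 1, which is 24.9%, and 6.59% held TTGCCAAA. The longest 3′ UTR of each receptor ranged from 134 bases in Stab1 to 2932 in Scarb2, with a median of 1227 against 1380 over those genes. The absence of these letters says nothing about other kinds of sites. In GRCm38 the genes lie at chr2:131069220-131086765 (Siglec1), chr8:39581685-39642673 (Msr1), chr5:17781690-17888801 (Cd36), chr14:31139013-31168641 (Stab1), chr5:125277087-125341094 (Scarb1), chr5:92441314-92506833 (Scarb2) and chr7:25757273-25788705 (Axl) on the minus strand. Mrc1 (chr2:14229392-14332057) and Mertk (chr2:128698956-128802894) lie on the plus strand. Stab1 overlaps Nt5dc2 and Mertk overlaps Gm14011, both on the opposite strand, and whether reads were counted by strand is not given in the sources used here, so reads of these pairs may not be separated.

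Per length, WT Basal cells expressed Stab1 (stabilin-1, a receptor for acetylated lipoproteins and the matrix protein SPARC) at 818 and 1008 RPKM, the highest of the 9. Mrc1 (mannose receptor, CD206) followed at 753 and 702 RPKM and Cd36 (receptor for oxidised lipoproteins, fatty acids and thrombospondin) at 510 and 498 RPKM. Siglec1 was at rank 4 with 134 and 135 RPKM, and Axl last with 2.67 and 2.80 RPKM. The order was not the same in all conditions. In Mir182ΔM/ΔM RANKL cells Siglec1 was first with 301 and 299 RPKM, ahead of Stab1 at 143 and 171 RPKM, whereas in WT RANKL cells Siglec1 was at rank 7 with 22.5 and 22.6 RPKM. In both gain of function conditions Cd36 came first and Msr1 (scavenger receptor A) second, at 652 and 432 RPKM on average in Control, and Mrc1 was at 67.4 RPKM.

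**Figure D1:**
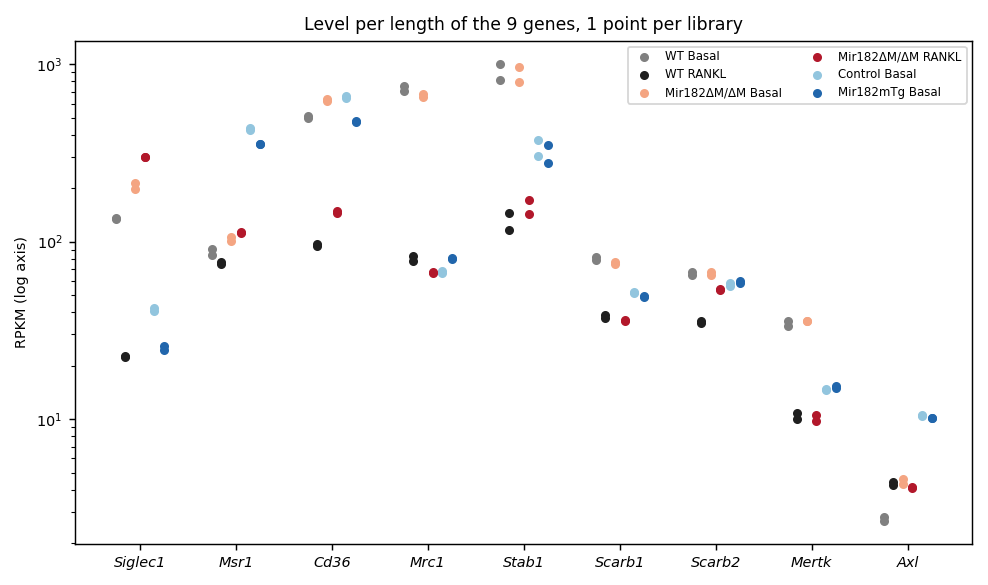
Level per length of the 9 receptor genes (RPKM, log axis), with 1 point for each library and colours for the 6 conditions. Siglec1 is the highest of the 9 in Mir182ΔM/ΔM RANKL (301 and 299 RPKM) and at rank 7 in WT RANKL (22.5 and 22.6 RPKM), while Axl is the lowest in all 6 conditions.

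The 9 genes together took 1.43% to 1.59% of the reads of the Basal libraries of both loss of function genotypes, 0.246% and 0.263% in WT RANKL and 0.474% and 0.493% in Mir182ΔM/ΔM RANKL. Replicates were close: the larger of the 2 values was at most 1.08 times the smaller in every condition for 8 of the genes. Stab1 was the exception, with replicate 2 above replicate 1 in all 6 conditions and a ratio of up to 1.26. A lack of overlap between conditions is named below for single receptors. It was not counted over all genes and does not set the receptors apart from them. Between the highest and the lowest condition the mean level differed 13.3-fold for Siglec1 and 10.8-fold for Mrc1, but 1.87-fold for Scarb2.

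**Figure D2:**
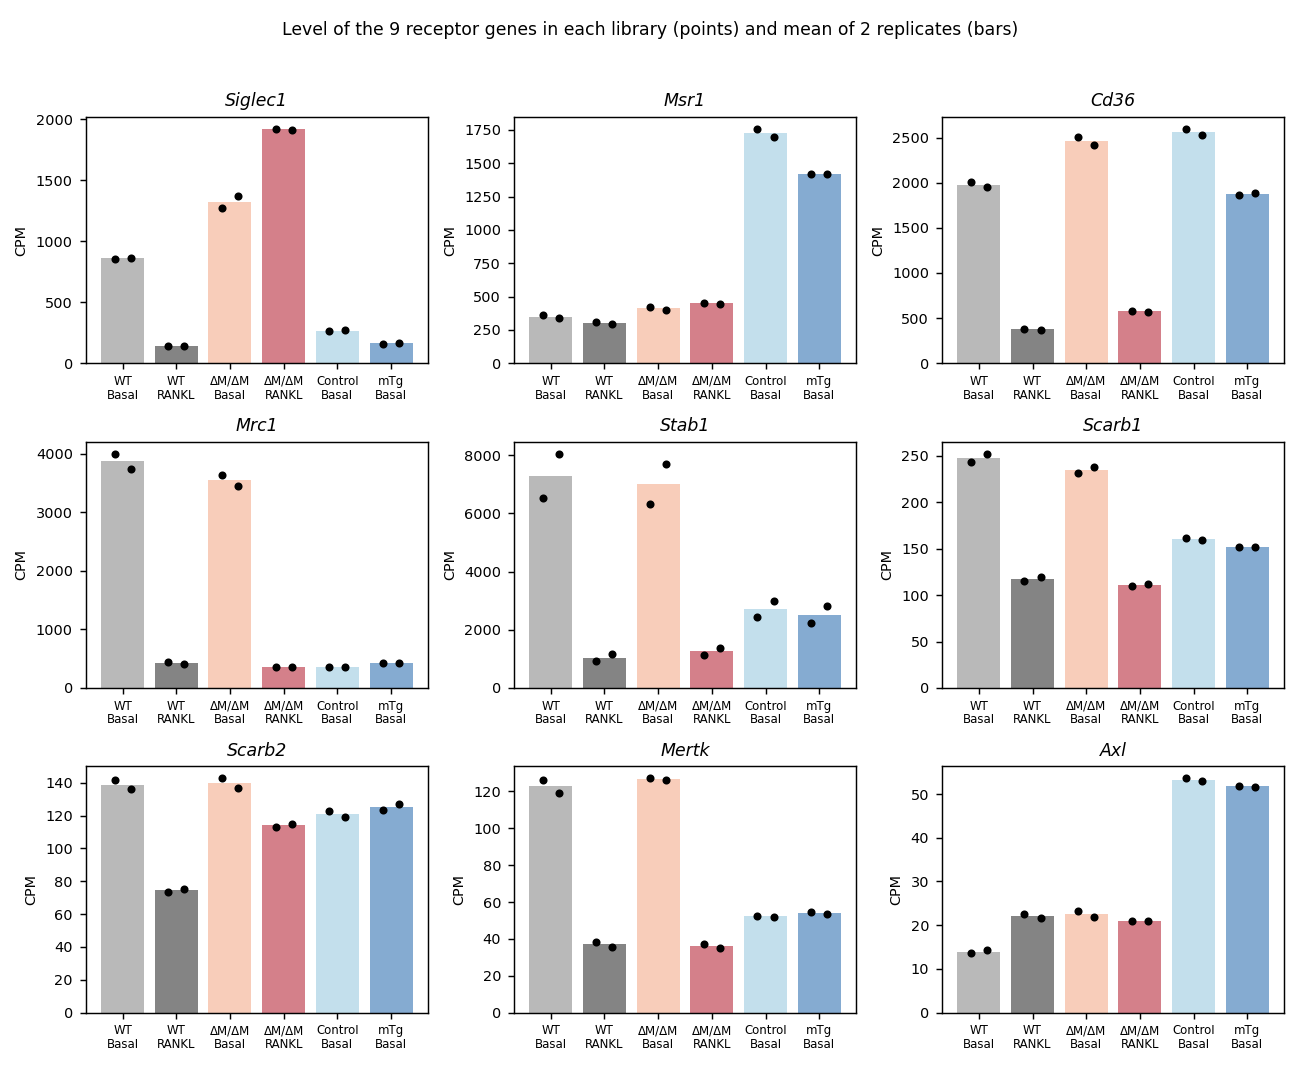
Level of each receptor gene (CPM, linear axis from 0) in the 6 conditions, with bars for the mean of 2 replicates and points for the libraries. Siglec1 falls from 859 CPM to 144 CPM with RANKL in WT cells and stands at 1916 CPM in Mir182ΔM/ΔM RANKL, whereas Mrc1, Stab1, Scarb1 and Mertk are lower after RANKL in both genotypes.

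RANKL lowered 8 of the 9 receptors in WT cells. Siglec1 was at 855 and 863 CPM in WT Basal and at 144 and 144 CPM in WT RANKL, a 5.97-fold fall with no overlap (log2 fold change of -2.57 ± 0.059 SE, limma adjusted p = 1.59e-07). Mrc1 went from 4003 and 3734 CPM to 441 and 413 CPM, a 9.05-fold fall and the largest of the 9 (limma adjusted p = 1.29e-07). Stab1 went from 6537 and 8057 CPM to 931 and 1153 CPM, a log2 fold change of -2.81 ± 0.16 SE in spite of its wider spread (adjusted p = 7.66e-06). These are the 3 largest falls, and in each case both RANKL libraries lay far under both Basal libraries.

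Among the class B receptors, Cd36 fell 5.27-fold in WT cells, from 2002 and 1954 CPM to 380.2 and 371 CPM. Scarb1, the receptor for high-density lipoprotein, fell 2.12-fold, from 244 and 253 CPM to 115 and 119 CPM. Scarb2 (LIMP-2, the carrier of glucocerebrosidase to lysosomes) fell 1.86-fold, from 141 and 136 CPM to 73.6 and 75.5 CPM. The limma adjusted p-values of the 3 genes ranged up to 1.53e-05. Msr1 changed least, from 364 and 336 CPM to 309 and 298 CPM (1.15-fold lower, limma adjusted p = 0.0260), and its call was lost without WT Basal replicate 1 (adjusted p = 0.146), WT RANKL replicate 1 (0.0636) or WT RANKL replicate 2 (0.125). The TAM kinases moved in opposite directions: Mertk fell 3.32-fold, from 126 and 119 CPM to 38.5 and 35.5 CPM, while Axl rose 1.59-fold, from 13.6 and 14.2 CPM to 22.5 and 21.7 CPM (limma adjusted p = 0.000347).

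Over all 11691 genes tested, RANKL in WT cells called 22.0% lower and 40.6% higher, so a called gene was common in this comparison. With the replicate number as a block, the calls of the receptors were the same and the shares over all genes were 29.0% lower and 52.8% higher. The median log2 fold change was -1.71 for the receptors and 0.19 for all genes. Division by TMM factors moved the median of all genes by -0.19 and left all 9 calls in place, while the share of higher genes among those called went from 64.8% to 48.6%. Against Control Basal, in 1 edgeR fit of all 12 libraries with the replicate block, WT RANKL was again lower for 7 receptors, with log2 differences of -0.97 for Siglec1, -2.59 for Msr1, -2.85 for Cd36 and -1.46 for Stab1. The direction turned for Mrc1 (0.17, adjusted p = 1.13e-05) and Axl (-1.35, adjusted p = 1.24e-19). The Basal level of these 2 and of other receptors differed between the experiments. Msr1 averaged 350 CPM in WT Basal and 1727 CPM in Control, while Siglec1 averaged 859 and 266 CPM. In the same fit the differences against WT Basal were -0.41 for Msr1 and -2.78 for Siglec1. The values against Control therefore also hold the difference between the experiments, whose part was not tested.

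In Mir182ΔM/ΔM cells RANKL lowered 6 of the 9 receptors, and Siglec1 rose. Siglec1 was at 1273 and 1367 CPM in Mir182ΔM/ΔM Basal and at 1920 and 1912 CPM after RANKL, 1.45-fold higher with no overlap (log2 fold change of 0.54 ± 0.059 SE, limma adjusted p = 0.000214). Mrc1 fell 9.95-fold, from 3635 and 3456 CPM to 358 and 355 CPM. Stab1 fell 5.57-fold, from 6312 and 7686 CPM to 1147 and 1366 CPM. Mertk fell 3.51-fold, from 127 and 126 CPM to 37.3 and 34.8 CPM, so the mannose receptor, stabilin-1 and the efferocytosis kinase fell in both genotypes.

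Cd36 fell 4.28-fold in Mir182ΔM/ΔM cells, from 2508 and 2421 CPM to 583 and 569 CPM. Scarb1 fell 2.12-fold, from 232 and 238 CPM to 110.1 and 112 CPM. Scarb2 fell 1.23-fold, from 143 and 137 CPM to 113 and 115 CPM (limma adjusted p = 0.00472). Msr1 did not pass the test, with 422 and 402 CPM against 451 and 447 CPM (log2 fold change of 0.12 ± 0.064 SE, limma adjusted p = 0.138). The fit with the replicate block called it higher (adjusted p = 0.000898). Axl, at 23.3 and 22.0 CPM against 20.9 and 21.1 CPM, did not pass either (adjusted p = 0.292). Of all genes, 26.4% were lower and 30.4% higher in this comparison, or 36.3% and 42.7% with the block, and the median log2 fold change was -1.08 for the receptors against 0.05 for all genes.

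**Figure D3:**
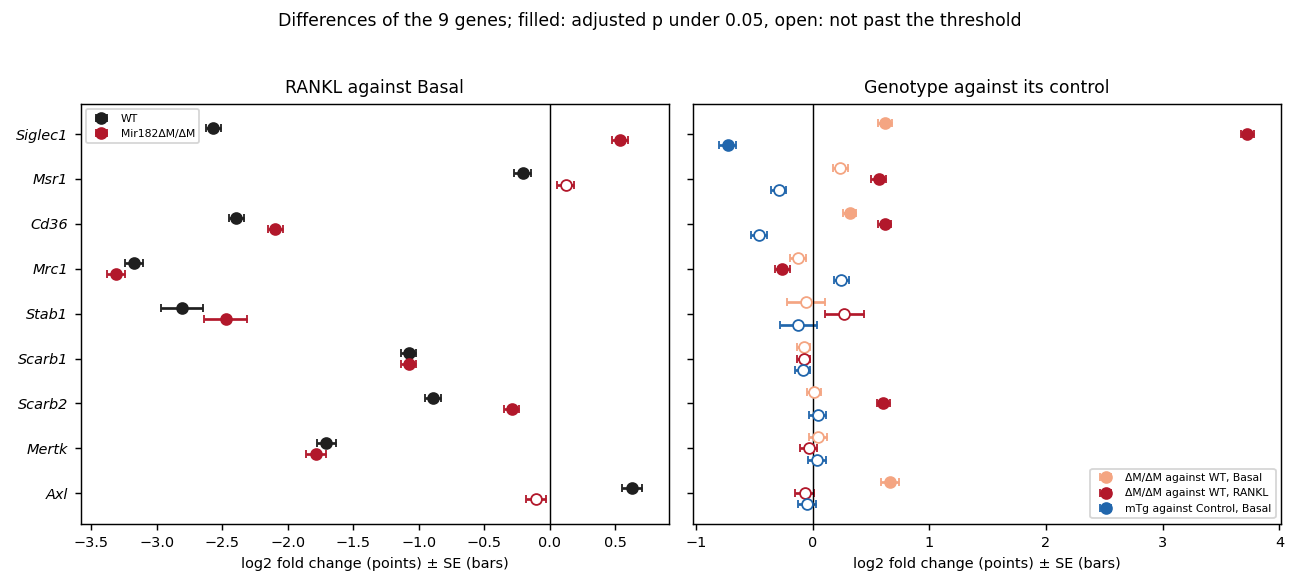
Log2 fold changes of the 9 receptor genes (points) with their standard errors (bars), for RANKL against Basal in both loss of function genotypes (left) and for each genotype against its control (right). Filled points passed an adjusted p of 0.05, and the point of Siglec1 for Mir182ΔM/ΔM against WT after RANKL, at 3.73, lies far from those of the other 8 genes.

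Without RANKL, Mir182ΔM/ΔM cells differed from WT cells in 3 of the 9 receptors, all higher. Siglec1 was 1.54-fold higher, with 1273 and 1367 CPM against 855 and 863 CPM (log2 fold change of 0.62 ± 0.059 SE, limma adjusted p = 0.00286). Axl was 1.63-fold higher, with 23.3 and 22.0 CPM against 13.6 and 14.2 CPM (adjusted p = 0.00666). Cd36 was 1.25-fold higher, with 2508 and 2421 CPM against 2002 and 1954 CPM (adjusted p = 0.0296). In all 3 genes both Mir182ΔM/ΔM libraries were above both WT libraries. Mrc1, Stab1, Scarb1, Scarb2 and Mertk had log2 differences between -0.13 and 0.05 and did not pass, and Msr1 had 0.24 ± 0.064 SE (adjusted p = 0.112).

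Few genes passed this test, 2.71% higher and 1.10% lower, or 18.6% and 12.7% with the replicate block. The block also called Msr1 higher (adjusted p = 3.58e-06) and Mrc1 lower (adjusted p = 0.00167), so that 4 receptors were higher and 1 lower. Siglec1 kept its call whichever of the 8 libraries was left out, whereas the call of Cd36 was lost in each of these 8 cases (adjusted p from 0.0635 to 0.224) and that of Axl without WT Basal replicate 1 (0.0558) or Mir182ΔM/ΔM Basal replicate 1 (0.0722). Lyz2 was at 31.2 to 44.0 CPM in these 4 libraries.

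After RANKL the receptor that set the genotypes apart most was Siglec1. It was at 1920 and 1912 CPM in Mir182ΔM/ΔM RANKL and at 144 and 144 CPM in WT RANKL, a 13.3-fold difference (log2 fold change of 3.73 ± 0.059 SE, limma adjusted p = 1.22e-07). Within replicate 1 the log2 ratio was 3.74 and within replicate 2 it was 3.73. The Mir182ΔM/ΔM RANKL libraries were also above each of the 10 other libraries, of which the highest, Mir182ΔM/ΔM Basal replicate 2, was at 1367 CPM. Under the 18 other settings run for this value the log2 fold change stayed between 3.72 and 3.89. All of these settings compared with WT RANKL libraries, so the part of what sets those libraries apart was not tested.

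Msr1, Cd36 and Scarb2, receptors for lipoproteins or lysosomal cargo, were moderately higher in Mir182ΔM/ΔM RANKL cells. Msr1 was 1.48-fold higher, at 451 and 447 CPM against 309 and 298 CPM (log2 fold change of 0.56 ± 0.064 SE, limma adjusted p = 0.000415). Cd36 was 1.53-fold higher, at 583 and 569 CPM against 380.2 and 371 CPM (adjusted p = 0.000159). Scarb2 was 1.53-fold higher, at 113 and 115 CPM against 73.6 and 75.5 CPM (adjusted p = 0.000213). For each of them the libraries of the genotypes did not overlap, and the call held whichever library was left out.

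Mrc1 was 1.20-fold lower in Mir182ΔM/ΔM RANKL cells, at 358 and 355 CPM against 441 and 413 CPM (limma adjusted p = 0.0179). That call was lost with TMM factors (log2 fold change of -0.11, adjusted p = 0.225) and without WT RANKL replicate 1 (adjusted p = 0.110), Mir182ΔM/ΔM RANKL replicate 1 (0.0682) or Mir182ΔM/ΔM RANKL replicate 2 (0.0763). Stab1 (log2 fold change of 0.27 ± 0.16 SE), Scarb1 (-0.08), Mertk (-0.04) and Axl (-0.07) did not pass, and with TMM factors the last 3 were at 0.07, 0.11 and 0.08. Mertk stood at 37.3 and 34.8 CPM against 38.5 and 35.5 CPM, so that the genotypes overlapped in this kinase. Of all genes 14.3% were higher and 30.9% lower, or 23.4% and 49.7% with the replicate block, which also called Stab1 higher (adjusted p = 1.53e-08) and Scarb1 lower (adjusted p = 0.0324). The median log2 fold change of the receptors was 0.27 and that of all genes -0.15, and TMM factors moved the latter by 0.14. Of the called genes 31.6% were higher, or 50.8% with TMM factors.

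The response to RANKL differed between the Mir182ΔM/ΔM and WT libraries for 5 of the 9 receptors, by the interaction term of the same limma fit. The WT RANKL libraries enter this term, so genotype cannot be told apart from what sets those libraries apart. The response in Mir182ΔM/ΔM minus that in WT was 3.11 ± 0.083 SE on the log2 scale for Siglec1 (adjusted p = 6.26e-06), which fell in WT and rose in Mir182ΔM/ΔM cells. Scarb2 had 0.60 (adjusted p = 0.00240), a smaller fall in Mir182ΔM/ΔM cells. Axl had -0.74 (adjusted p = 0.00328), since it rose in WT cells and stood at 0.93 times its Basal level in Mir182ΔM/ΔM cells. Msr1 (0.33, adjusted p = 0.0373) and Cd36 (0.30, adjusted p = 0.0344) also passed, but Cd36 lost the call whichever library was left out (adjusted p from 0.0737 to 0.125), and so did Msr1 (from 0.0742 to 0.130) except without WT Basal replicate 2 (0.0409). Mrc1, Stab1, Scarb1 and Mertk did not pass, with -0.14, 0.33, 0.00 and -0.08, and TMM factors turned the sign of Mrc1, Scarb1 and Mertk. Of all genes 7.44% had a higher and 17.1% a lower response in Mir182ΔM/ΔM cells, or 16.1% and 42.8% with the replicate block. With TMM factors, which moved the median of all genes by 0.16, 49.3% of the called genes had a higher response against 30.3% without them. The block also called Stab1 higher (adjusted p = 2.67e-07) and Mrc1 lower (adjusted p = 0.00666).

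In the gain of function experiment Siglec1 was the only receptor to pass the test, and it was lower in Mir182mTg cells. It was at 157 and 166 CPM against 260 and 271 CPM in Control, 1.65-fold lower with no overlap (log2 fold change of -0.73 ± 0.072 SE, edgeR adjusted p = 0.0454, and 3.41e-07 to 0.0464 under the other settings without the block). Cd36 was at 1862 and 1887 CPM against 2596 and 2524 CPM (log2 fold change of -0.46, edgeR adjusted p = 0.109), and DESeq2 called it (adjusted p = 0.00423). Msr1 was at 1418 and 1421 CPM against 1757 and 1698 CPM (log2 fold change of -0.29, edgeR adjusted p = 0.330).

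Mrc1 was at 428 and 427 CPM in Mir182mTg against 365 and 352 CPM in Control (log2 fold change of 0.25, edgeR adjusted p = 0.427). Neither this gene nor Cd36 or Msr1 overlapped between the genotypes, but the share of all genes without overlap was not counted. Stab1, Scarb1, Scarb2, Mertk and Axl had log2 differences from -0.12 to 0.04. Of the 12081 genes tested 0.0993% were higher and 0.157% lower, or 6.94% and 8.15% with the replicate block. The block called 4 receptors lower (Siglec1, Msr1, Cd36 and Stab1) and Mrc1 higher, with edgeR adjusted p-values up to 0.00322. Neutrophil and progenitor markers summed to 113 and 122 CPM in the Mir182mTg libraries and 53.0 and 53.1 CPM in Control, and their part in these differences was not tested. No RANKL-treated gain of function cells were analysed here.

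Siglec1 moved along with the interferon-stimulated genes, a list of 22 that includes Irf7, Stat2, Mx1 and Isg15. Their summed level was 1500 and 1523 CPM in WT Basal and 1086 and 1138 CPM in WT RANKL. In Mir182ΔM/ΔM cells it was 2742 and 2796 CPM without RANKL and 8472 and 8727 CPM after it. Control had 906 and 963 CPM and Mir182mTg 785 and 834 CPM. In the loss of function libraries the order of the 4 conditions by this sum was that of Siglec1, but WT RANKL had less Siglec1 than Control and Mir182mTg, whose sums were lower.

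**Figure D4:**
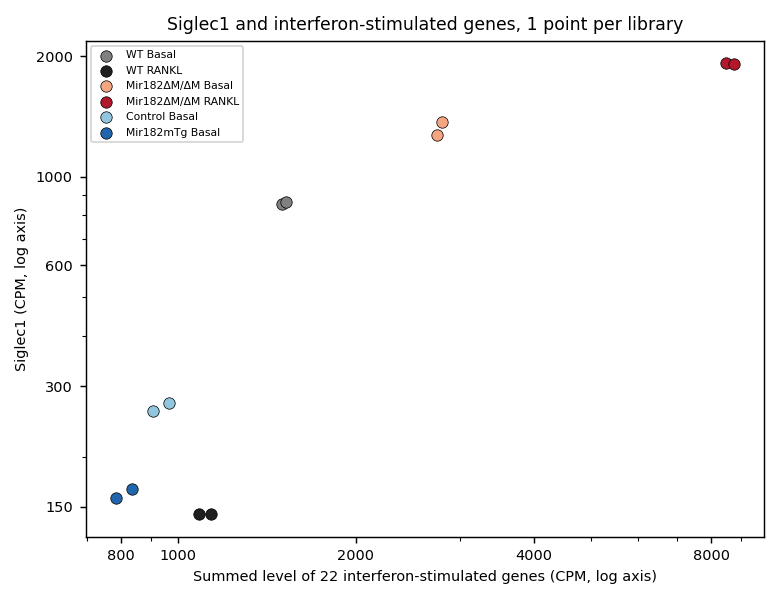
Siglec1 (CPM, log axis) against the summed level of 22 interferon-stimulated genes (CPM, log axis), with 1 point for each of the 12 libraries. Mir182ΔM/ΔM RANKL is at the top right (8472 and 8727 CPM summed, 1920 and 1912 CPM Siglec1), and the WT RANKL points lie under those of Control although their sums are higher.

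By counts, RANKL raised 2 and lowered 13 of the 22 interferon-stimulated genes in WT cells (4 and 16 with the replicate block) and raised all 22 in Mir182ΔM/ΔM cells. Mir182ΔM/ΔM against WT was higher for 17 and lower for 1 (Ifi44) without RANKL and higher for all 22 after RANKL, with median log2 fold changes of 1.08 and 3.48. The interaction was higher for 21 of the 22. Over all genes RANKL raised 40.6% and lowered 22.0% in WT cells, or 52.8% and 29.0% with the block. In Mir182ΔM/ΔM cells it raised 30.4%. Without RANKL 2.71% of all genes were higher and 1.10% lower in Mir182ΔM/ΔM than in WT cells. After RANKL 14.3% were higher, and 7.44% had a higher interaction. Mir182mTg against Control called 0 of the 22 by edgeR and 0 by limma, with 12 lower by edgeR at an unadjusted p under 0.05. DESeq2 called 3 lower and edgeR with the block 14 lower, and the median was -0.33. Of all genes edgeR called 0.157% lower in Mir182mTg cells, or 8.15% with the block. Irf7, a master regulator of interferon genes, was at 57.9 and 57.4 CPM in WT Basal, 47.6 and 49.7 CPM in WT RANKL, 147 and 156 CPM in Mir182ΔM/ΔM Basal and 1297 and 1355 CPM in Mir182ΔM/ΔM RANKL. Of the other 8 receptors, Msr1 had the same order over the 4 loss of function conditions, with means of 449, 412, 349.8 and 303 CPM from Mir182ΔM/ΔM RANKL down to WT RANKL, but its level in Control was 1727 CPM. The remaining 7 were all highest in a Basal condition.

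RANKL raised 10 or more of the 12 osteoclast markers in each genotype, to a lower summed level in Mir182ΔM/ΔM cells, where Siglec1 was higher. All 12 rose in WT cells, to summed levels of 10946 and 11134 CPM from 202 to 238 CPM, and 10 rose in Mir182ΔM/ΔM cells, to 3298 and 3258 CPM. In Mir182ΔM/ΔM cells Nfatc1 did not pass (log2 fold change of 0.18, limma adjusted p = 0.337), and Traf6 was lower (-0.31, adjusted p = 0.0264). The replicate block called Nfatc1 higher (adjusted p = 0.000157). Of all genes 40.6% rose with RANKL in WT cells and 30.4% in Mir182ΔM/ΔM cells. After RANKL 11 of the 12 were lower in Mir182ΔM/ΔM than in WT cells, and the interaction was lower for 11, beside 30.9% and 17.1% of all genes. The exception was Calcr, at 9.39 CPM on average in WT RANKL and 9.37 CPM in Mir182ΔM/ΔM RANKL. The part of this difference between the cultures in the values of the receptors was not tested.

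The ligand side of efferocytosis was read from 11 bridging and opsonizing proteins, of which 10 were tested. Gas6, the ligand of Mertk and Axl, fell with RANKL in WT cells from 1995 and 2210 CPM to 164 and 182 CPM (log2 fold change of -3.60, limma adjusted p = 1.69e-07) and in Mir182ΔM/ΔM cells from 1714 and 1852 CPM to 161 and 170.3 CPM. Complement C3 rose in both, to 506 and 456 CPM in WT RANKL and 1291 and 1264 CPM in Mir182ΔM/ΔM RANKL. After RANKL 6 of the 10 were higher in Mir182ΔM/ΔM cells, led by C3 (log2 fold change of 1.41) and the complement component C1qa (1.28), and 1 was lower, Mfge8 (-1.28), which bridges phosphatidylserine to integrins. With the replicate block 6 were higher and 2 lower, and of all genes 14.3% were higher and 30.9% lower without the block. Their median was 0.33 against -0.15 for all genes, and Gas6 itself did not pass between the genotypes after RANKL (-0.06, adjusted p = 0.599).

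The other scavenger receptors and apoptotic cell receptors were mixed. With RANKL in WT cells 2 of 11 tested scavenger receptors rose and 6 fell, among them Cd163, the haemoglobin-haptoglobin receptor (log2 fold change of -2.40), and Marco (-1.56). Of 8 apoptotic cell receptors 2 rose, the integrin chains Itgav (2.33) and Itgb3 (2.08), and 6 fell, led by Cd300lf (-2.29). Of all genes 40.6% rose and 22.0% fell in this comparison, and with the replicate block 4 scavenger receptors rose and 6 fell while the counts of apoptotic cell receptors were the same. After RANKL 5 scavenger receptors were higher in Mir182ΔM/ΔM cells and 3 lower, with Colec12 (log2 fold change of 1.25) and the transmembrane chemokine Cxcl16 (0.91) foremost among the higher. Of the apoptotic cell receptors 6 were higher, led by Cd300a (1.19), and 2 lower, led by Itgav (-0.98). With the block 6 scavenger receptors were higher and 4 lower, and the counts of apoptotic cell receptors were again the same. The shares over all genes were 14.3% higher and 30.9% lower, so the 3 lower of 11 scavenger receptors were near the background. The medians were 0.28 for the scavenger and 0.50 for the apoptotic cell receptors against -0.15 for all genes.

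The list of other Siglecs had 6 tested genes, of which Spn (CD43) is a sialomucin and not a Siglec. After RANKL 3 of the 6 were lower in Mir182ΔM/ΔM than in WT cells. They were led by Cd33 (log2 fold change of -2.27) and Siglec15, which osteoclasts express (-0.94), and the other 3, with Spn, did not pass. With the replicate block 5 of the 6 were lower, Spn among them. The summed level of the list was 208 to 227 CPM in WT RANKL and 140.0 to 143 CPM in Mir182ΔM/ΔM RANKL. Spn made up most of it, with 152 and 135 CPM in WT RANKL and 119 and 112 CPM in Mir182ΔM/ΔM RANKL. Among 14 tested genes of engulfment and cholesterol handling, 4 were higher and 2 lower after RANKL in Mir182ΔM/ΔM cells, the latter being the cholesterol exporters Abca1 (log2 fold change of -0.75) and Abcg1 (-0.57). Of the 13 transcriptional regulators linked to these receptors 3 were higher, led by the nuclear receptors Pparg (log2 fold change of 2.38) and Nr1h3 (1.22), and 7 lower, led by Ppard (-1.88). The replicate block gave 5 higher and 5 lower genes of engulfment and cholesterol handling and 3 higher and 9 lower regulators. The shares over all genes were 14.3% higher and 30.9% lower, or 23.4% and 49.7% with the block. The medians were -0.47 for the list of other Siglecs with Spn, -0.03 for engulfment and cholesterol handling and -0.30 for the regulators.

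The genes most like Siglec1 over the 12 libraries, by Pearson r of log2(CPM + 1) among 11064 genes, were Pde7b (0.989), Mocos (0.983), 2610203C22Rik (0.979), Bloc1s6 (0.974) and Stat2 (0.970). For Mertk the third most alike gene was its ligand Gas6 (0.994), after Rragc (0.995) and Osbpl11 (0.994). Msr1 was most like Usp2, Id1 and Slc39a14 (0.995 to 0.989), Cd36 like Hip1, Rnf141 and Lrp8 (0.991 to 0.990), and Mrc1 like Man1a, Ttyh2 and Frmd4b (0.997 to 0.988). Stab1 was most like Snx5, Vps13c and Glmp (0.996 to 0.993), Scarb1 like Camk1, Tmem8 and Sec14l1 (0.997 to 0.994), Scarb2 like Dtnbp1, Xylt2 and Rab7b (0.990 to 0.985), and Axl like Sh2d1b1, Pafah1b1 and Tbc1d8b (0.989 to 0.984). The 12 points are 6 conditions with 2 close libraries each, so these values describe the pattern over 6 conditions. Among the receptors Siglec1 had an r between -0.59 (Axl) and 0.53 (Scarb2) with the other 8.

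The untreated controls of the 2 experiments, both described as LysMcre cells without RANKL, differed in several receptors. They also differed in Lyz2, the gene that carries the Cre insertion, with 41.9 CPM on average in WT Basal and 6199 CPM in Control. Ifi202b averaged 103 CPM in WT Basal and 0 CPM in Control. Mrc1 was at 4003 and 3734 CPM in WT Basal and at 365 and 352 CPM in Control, and Siglec1 at 855 and 863 CPM against 260 and 271 CPM. Msr1 went the other way, with 364 and 336 CPM against 1757 and 1698 CPM, as did Axl with 13.6 and 14.2 CPM against 53.6 and 53.0 CPM. The experiments were deposited in different units and rescaled here to CPM, and these differences were not tested. In the order of the 6 conditions, the libraries of neighbouring conditions were apart at all 5 steps for Siglec1, Msr1, Cd36 and Scarb1. They overlapped at 1 step each for Scarb2 (Mir182ΔM/ΔM Basal and WT Basal) and Axl (Mir182ΔM/ΔM Basal and WT RANKL). Mertk overlapped between the genotypes at both states of treatment. Mrc1 overlapped between Mir182mTg and WT RANKL and between Control and Mir182ΔM/ΔM RANKL. Stab1 overlapped between the genotypes in all 3 genotype comparisons. The share of all genes without overlap was not counted, so these steps do not set the receptors apart from other genes.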

How the data were processed

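RNA-seq of BMMs was analysed in 12 libraries of 6 conditions, grouped and numbered from their labels. CPM is what the authors deposited for 8 libraries, those of the loss of function experiment. The values of each library have the same total and are whole multiples of 1 read (100% of values within 0.02 reads). For the 4 gain of function samples the deposited values are raw read counts per gene, rescaled here to CPM for levels. RPKM was deposited for replicate 1 of every condition, and replicate 2 was divided by the same gene lengths. The authors aligned reads to mm10, with TopHat and Cufflinks for replicate 1 and HISAT2, HTSeq and edgeR for replicate 2 per the labels, which also give poly-A RNA for replicate 1 and total RNA for replicate 2 as the molecule, and poly-A selection in the protocol of all 12. Versions are not given in the sources used here. The ribosomal transcript Rn45s was at 742 to 1176 CPM in replicate 1 and 9778 to 21273 CPM in replicate 2. Reads per library averaged 28246201, and 3 reads were worth 0.0908 to 0.12 CPM.

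CPM were tested with limma 3.58.1 (trend) on log2(CPM + 1), in 1 fit of 4 groups, for 11691 genes that reached 1 CPM in 2 or more of 8 samples. Fold changes are on that scale, which understates those of low genes, and folds are ratios of mean CPM. Counts were tested with edgeR 4.0.16 (TMM, quasi-likelihood). P-values were adjusted by Benjamini-Hochberg over all genes tested, with a threshold of 0.05. An edgeR SE is the absolute log2 fold change over the square root of F. Scripts were tested on simulated data. Replicate numbers pair the samples: the replicate 2 minus replicate 1 log ratios of all 15 pairs of conditions correlated across genes with r of 0.716 to 0.789, and with the number as a block the biological coefficient of variation over 12750 genes fell from 10.4% to 1.60%. Alternatives were other filters, pseudocounts, scalings, the block, edgeR on recovered reads, DESeq2 1.42.0 and leaving out each sample. The receptors and gene lists were chosen with earlier results of these data known. In each other list the genes with the largest called change (at most 2 per direction and comparison) could be named, along with genes that check the labels. Irf7, Stat2, Mx1 and Isg15 are named as list members. Of the listed genes Scart1, Trac and Ly6g were not used here. The files write 27 gene names as dates, and these were not used by name.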

Additional observations from a re-analysis of the deposited data

Results flagged for a closer look

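The response to RANKL differed between Mir182ΔM/ΔM and WT cells for 5 of the 9 receptors by the interaction term of the limma fit, with 2 libraries per condition. The response in Mir182ΔM/ΔM minus that in WT, on the log2 scale, was 3.107 for Siglec1, 0.598 for Scarb2, 0.329 for Msr1, 0.299 for Cd36 and -0.735 for Axl. Siglec1 fell in both pairs of WT libraries (-2.57 and -2.58 within replicates 1 and 2) and rose in both pairs of Mir182ΔM/ΔM libraries (0.59 and 0.49). All 5 differences use the WT RANKL libraries, in which Lyz2 was at 4117 and 4288 CPM against 22.5 to 44.0 CPM in the other 6 libraries, and the part of what sets those libraries apart was not tested.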

How the results depend on the processing

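The counts of receptors called stayed within 1.5 times the main count in 161 of the 190 values obtained under other settings. With the replicate block, alone, with TMM factors or in edgeR, receptors higher with RANKL in Mir182ΔM/ΔM cells numbered 2 instead of 1 in all 3 fits, and receptors lower in Mir182ΔM/ΔM than in WT without RANKL numbered 1, 3 and 3 instead of 0. After RANKL, 2 were lower with the block, 0 with TMM factors and 0 by edgeR on recovered reads instead of 1, and 7 were higher with TMM factors and the block instead of 4. In the interaction 2 were lower with the block instead of 1, and 2 were higher with no filter on low values instead of 4. Without RANKL, 1 instead of 3 was higher in Mir182ΔM/ΔM in a fit of only the 4 samples compared. In Mir182mTg cells 2 receptors were lower with no filter and 2 by DESeq2 instead of 1, and the block gave 4 lower and 1 higher. With 1 library left out, receptors higher in Mir182ΔM/ΔM without RANKL numbered 1 to 2, lower after RANKL 0 to 1, and higher in the interaction 2 to 3. An arm left with 1 library was assumed to vary like the others.

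Of the 855 values of single receptors under other settings, 779 stayed on their side of the threshold, 29 newly passed, 39 no longer passed and 8 had the opposite sign with a call in at least 1 of both settings. Those 8 were Mrc1 (0.171) and Axl (-1.355) for WT RANKL against Control Basal, Scarb1 (0.073) and Mertk (0.115) after RANKL with TMM factors and the block, Mertk by edgeR with the block (0.120, and 0.122 on all 12 samples, a setting added after the data were seen), and Scarb1 in the interaction with the block and TMM factors (0.166) or edgeR (0.168). The replicate block alone changed no call of a receptor beyond those given with the results. With TMM factors and the block, and in edgeR with the block, Stab1 (adjusted p = 0.0426 and 0.0484) and Scarb1 (0.0312 and 0.0294) were also lower in Mir182ΔM/ΔM without RANKL, and edgeR with the block called Axl lower with RANKL in Mir182ΔM/ΔM cells (0.0498). The causes were not tested. Counting error was small for all 9 receptors, the lowest of which had 355 reads.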
